A study of Mus musculus with 191 samples.

Results

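The p53 pathway was examined in the lungs of mice exposed to 26 chemicals through 10 of its well-known target genes: Cdkn1a, Ccng1, Phlda3, Mdm2, Bax, Trp53inp1, Sesn2, Ei24, Gdf15 and Eda2r. Probe sets were taken for a gene only where the array annotation gave that symbol and no other. This gave 15 probe sets for 8 of the 10 genes among 18194 genes in all. Bax, which permeabilises mitochondria during apoptosis, and Gdf15, a secreted stress cytokine of the TGF-beta family, had none of their own and were not analysed here. Eda2r, a receptor of the tumour necrosis factor family, lay below the median of all values on every array, so 7 genes were tested among 13524. Where a tested gene had several probe sets, the one with the highest average over all arrays stood for it.

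The p53 protein is a transcription factor that is stabilised when DNA is damaged. It binds pairs of short half-sites and switches on genes that halt the cell cycle, repair DNA or kill the cell, and one of them, Mdm2, marks p53 for destruction and so closes a feedback loop. In the lung, inhaled or circulating chemicals can be turned into DNA-binding products by club cells, the secretory cells of the airway that are rich in cytochrome P450.

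RNA from the right lobe of the lung was profiled on Affymetrix mouse arrays in female mice of the hybrid B6C3F1, used in rodent cancer bioassays, after 13 weeks of exposure, which began at 5 weeks of age and ended at 18 weeks. The 133 arrays of exposed mice formed 34 groups and the 58 control arrays formed 14 vehicle sets, with 3 to 5 arrays each, 1 mouse per array. Exposed lungs were compared with all control sets that shared their vehicle and array code, the last part of the sample title, which takes 4 forms. Because the array and animal numbers are small, they limit the precision of every value.

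The chemicals were sorted by structure and textbook knowledge into 3 classes, since the labels give none. The 7 chemicals classed as DNA-reactive were 1,2,3-trichloropropane (TCPN, 60 mg/kg) and 1,2-dibromoethane (DBET, 62 mg/kg), both gavaged in corn oil, 2-chloromethylpyridine hydrochloride (CMPH, 250 mg/kg) by gavage in water, 2,2-bis(bromomethyl)-1,3-propanediol (BBMP, 1250 ppm) and tris(2,3-dibromopropyl)phosphate (TDPP, 1000 ppm) in chow, and ethylene oxide (ETOX, 100 ppm) and methylene chloride (MECL, 100 to 4000 ppm) in air. The class of a further 7 was taken as uncertain. These were benzene (BENZ, 100 mg/kg) and iodoform (IODO, 93 mg/kg) in corn oil, N-methylolacrylamide (MACR, 50 mg/kg) in water, and 1,5-naphthalenediamine (NAPD, 2000 ppm), N-(1-naphthyl)ethylenediamine dihydrochloride (NEDD, 2000 ppm), 1-amino-2,4-dibromoanthraquinone (ABDQ, 20000 ppm) and 4-nitroanthranilic acid (NAAC, 10000 ppm) in chow. The 12 others were 2,3-benzofuran (BFUR, 240 mg/kg), coumarin (COUM, 200 mg/kg), 1,4-dichlorobenzene (DCBZ, 600 mg/kg) and trichlorofluoromethane (TCFM, 3925 mg/kg) in corn oil, pentachloronitrobenzene (PCNB, 8187 ppm), malathion (MALA, 14800 ppm) and diazinon (DIAZ, 200 ppm) in chow, and tetrafluoroethylene (TFEL, 1250 ppm), tetrafluoroethane (TFEA, 50000 ppm), vanadium pentoxide (VANP, 2 mg/m3), propylene glycol mono-t-butyl ether (PGBE, 1200 ppm) and naphthalene (NPTH, 0.5 to 30 ppm) in air. For malathion the sample titles give a higher figure, and the 14800 ppm of the treatment label was used. Controls received corn oil (CCO2 to CCO6 and CornOil), distilled water (WCO1), plain rodent chow (FCO1, FCO2 and RodentChow) or filtered air (ACO1 and ACO3 to ACO5).

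Promoter sequences are shown for 3 members that carry a p53 half-site near a transcription start, since these genes lead the results that follow or are the pathway's best-known target. RefSeq promoter windows on build GRCm38.p6, which run from 250 bases before to 50 after a start, were found for 9 of the 10 genes in 11 windows, and none for Trp53inp1. The p53 half-site consensus, which reads the same on both strands, occurred in 5 of the 11 windows and in 8.36% of all 32851 windows. The Ccng1 window lies at chr11:40755237-40755536 on the minus strand, the Mdm2 window at chr10:117710709-117711008 on the minus strand, and the Cdkn1a window, the upstream one of a pair, at chr17:29090729-29091028 on the plus strand. Capitals mark the half-sites, and each sequence is read in the direction of transcription.
Ccng1: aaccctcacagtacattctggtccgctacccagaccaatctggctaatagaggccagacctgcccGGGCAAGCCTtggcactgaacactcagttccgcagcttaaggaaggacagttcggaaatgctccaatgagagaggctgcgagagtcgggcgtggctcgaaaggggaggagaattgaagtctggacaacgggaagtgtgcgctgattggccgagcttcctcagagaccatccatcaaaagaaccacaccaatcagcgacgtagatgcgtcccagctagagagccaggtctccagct
Mdm2: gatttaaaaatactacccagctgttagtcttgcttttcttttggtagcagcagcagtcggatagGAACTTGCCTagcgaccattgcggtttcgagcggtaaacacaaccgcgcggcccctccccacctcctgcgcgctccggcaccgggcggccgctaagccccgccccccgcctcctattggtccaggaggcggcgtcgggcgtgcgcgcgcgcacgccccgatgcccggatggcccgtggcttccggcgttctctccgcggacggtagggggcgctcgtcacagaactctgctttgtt
Cdkn1a: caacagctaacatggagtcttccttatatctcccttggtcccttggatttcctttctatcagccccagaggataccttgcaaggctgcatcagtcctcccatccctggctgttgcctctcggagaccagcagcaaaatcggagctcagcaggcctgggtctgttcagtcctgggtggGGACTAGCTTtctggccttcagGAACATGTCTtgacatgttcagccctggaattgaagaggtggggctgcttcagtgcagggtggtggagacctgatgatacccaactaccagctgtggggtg
The Ccng1 half-site begins at -185 from the start and that of Mdm2 at -186, while Cdkn1a holds separate matches at -73 and -51. Only exact matches to the consensus are marked, and whether p53 binds the marked stretches as pairs was not tested. The windows of Bax and Ei24 hold 1 half-site each. None matched in those of Phlda3, Sesn2, Gdf15 and Eda2r, which says only that these letters are not in these windows.

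Over all contrasts, the 7 tested genes were called up 10 times and down 4 times among 238 gene-by-group pairs, or 4.2% up and 1.68% down. Over all genes tested, 1.86% of pairs were called up and 0.722% down. A call required a Benjamini-Hochberg adjusted p from limma under 0.05 and 1 direction in the comparisons with all control sets, and log2 fold changes are against the equal-weight mean of those sets. At least 1 call up was made for 5 of the 7 members, against 44.5% of all genes, and at least 1 call down for 4 of the 7, against 21.7%. In either direction it was 6 of the 7, all but Ei24, against 55.6% of all genes. In each call all 4 exposed arrays lay on the same side of the control mean. Values are log-scale array readings, taken as log2, and in whole lung fewer cells of a type and less RNA per cell cannot be told apart.

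**Figure D1:**
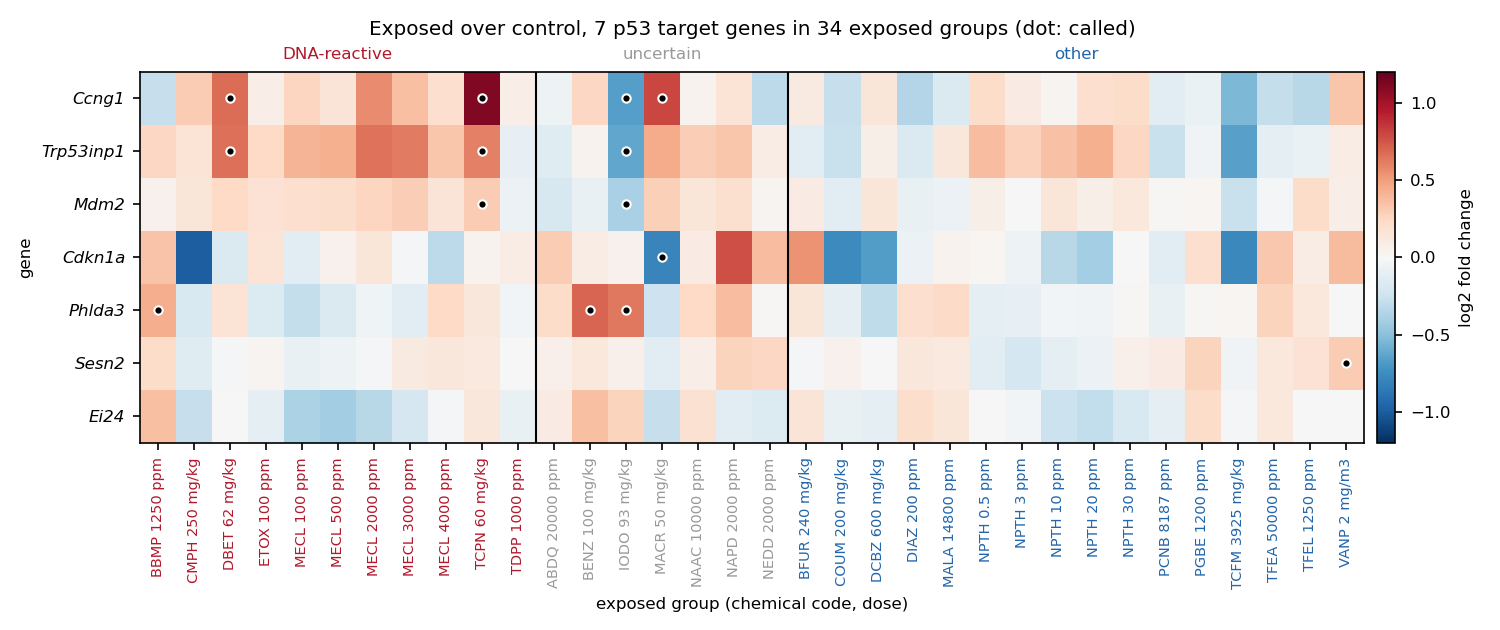
Log2 fold change of each tested gene (rows) in each exposed group over its controls (columns, chemical code and dose), ordered by class, with red above 0, blue below 0 and a dot where the gene was called. Dots for the gavaged TCPN and DBET lie in the Ccng1 and Trp53inp1 rows, those of IODO fill 4 rows in both directions, and the Ei24 row has none.

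Ccng1 gave the largest rise of any member. It encodes cyclin G1, which brings a phosphatase to Mdm2. In lungs of mice given TCPN, Ccng1 stood at 2.55, 2.53, 2.52 and 2.61, against a lowest, median and highest of 0.84, 1.48 and 1.97 in the 10 corn oil controls. The groups did not overlap, and the exposed arrays lay close together while the controls were spread widely. The log2 fold change was 1.11 ± 0.17 (SE), 2.16-fold, with adjusted p = 0.000233, where 7.73% of all genes were called up and 1.64% down. The call held with each of the 14 arrays left out and under every other setting tried. Both other probe sets of the gene were also called, at 1.11 (adjusted p = 4.62e-08) and 1.31 (adjusted p = 0.000578).

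Ccng1 also rose with DBET and MACR. With DBET it stood at 2.23, 2.15, 1.82 and 2.01, against 1.07, 1.40 and 1.79 as lowest, median and highest of 8 corn oil controls, a log2 fold change of 0.67 ± 0.18 (adjusted p = 0.0441) where 2.31% of all genes were called up and 0.362% down. The groups did not overlap, but the gap between the lowest exposed and the highest control array was small. The call was lost when any of DBET replicates 1, 2 and 4, CCO3 replicates 1 and 4 or CCO2 replicates 2 and 4 was left out (0.61 to 0.68, adjusted p = 0.0809 to 0.184). It was also lost in 6 of 8 other settings, with adjusted p of 0.0504 for each probe set on its own, 0.0506 without the filter, 0.0646 with 1 array code alone, 0.105 for the mean of probe sets, 0.114 after quantile normalization and 0.248 with a covariate, chosen after seeing the data, for the beta-actin 3′ minus 5′ signal, a measure of RNA and labelling quality. The other probe sets of Ccng1 were at 0.39 (adjusted p = 0.135) and 0.59 (adjusted p = 0.197) with DBET, neither called. With MACR, Ccng1 stood at 2.11, 1.79, 2.34 and 1.82, against 1.13, 1.72, 1.09 and 0.92 in the water controls, again without overlap. The log2 fold change was 0.80 ± 0.20 (1.74-fold, adjusted p = 0.0312), where 4.19% of genes were called up and 1.04% down. It fell short of the threshold without MACR replicate 1 or 3 or WCO1 replicate 1, 3 or 4 (0.69 to 0.77, adjusted p = 0.0624 to 0.235). Of its other probe sets, 1 was called with MACR (0.91, adjusted p = 0.0403) and 1 was not (0.41, adjusted p = 0.0776).

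Trp53inp1, whose product is a nuclear and autophagy protein that helps p53 act on apoptosis genes, rose in the same pair of corn oil groups. With TCPN it stood at 2.52, 2.37, 2.35 and 2.39, against 1.16, 1.73 and 2.20 as lowest, median and highest control, and the log2 fold change was 0.61 ± 0.17 (adjusted p = 0.0324). With DBET it stood at 2.47, 2.25, 2.40 and 2.55, against 1.24, 1.79 and 2.17, and the log2 fold change was 0.66 ± 0.18 (adjusted p = 0.038). In both cases every exposed array lay above every control array. The TCPN call was lost without any single TCPN array, CCO5 replicate 2, 3 or 5 or CCO6 replicate 4 (0.53 to 0.63, adjusted p = 0.0542 to 0.159), and after quantile normalization the value was 0.38 (adjusted p = 0.202). The DBET call was lost when DBET replicates 1, 3 or 4, CCO3 replicates 1 or 4 or CCO2 replicates 1, 2 or 4 were dropped one at a time (0.58 to 0.67, adjusted p = 0.0523 to 0.212). Fitting its array code alone ended it too (adjusted p = 0.0584), as did quantile normalization, where the value was 0.54 (adjusted p = 0.123). The second probe set of Trp53inp1 was called with TCPN (0.35, adjusted p = 0.0112) and NAPD (0.43, adjusted p = 0.0253) but not with DBET (0.34, adjusted p = 0.0794) or IODO (-0.19, adjusted p = 0.141).

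Mdm2, the ubiquitin ligase of p53, moved by less. With TCPN it stood at 1.20, 1.22, 1.18 and 1.18, against 0.53, 0.90 and 1.14 as lowest, median and highest control, so the groups were separate by a narrow margin. The log2 fold change of 0.30 ± 0.10 just passed the threshold (adjusted p = 0.0498). It was 0.12 after quantile normalization (adjusted p = 0.449), 0.19 as the mean of probe sets (adjusted p = 0.0718) and 0.30 with the beta-actin covariate (adjusted p = 0.0541), and the call was lost without any single TCPN array, CCO5 replicate 1, 2, 3 or 5 or CCO6 replicate 1, 3 or 4 (0.26 to 0.32, adjusted p = 0.0504 to 0.258). A second probe set of Mdm2 was called at 0.51 with TCPN (adjusted p = 0.0061), 0.45 with DCBZ (adjusted p = 0.0184), 0.41 with TFEL (adjusted p = 0.0428) and -0.40 with IODO (adjusted p = 0.0303).

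With IODO these 3 genes fell, in a group where 15.6% of all genes were called up and 11.9% down. Ccng1 stood at 0.61, 0.13, 1.02 and 0.87 in IODO lungs, against 1.60, 0.94, 1.76 and 0.98 in corn oil controls (-0.66 ± 0.20, adjusted p = 0.0159). Trp53inp1 stood at 1.20, 0.53, 1.49 and 1.22, against 2.11, 1.25, 2.10 and 1.47 (-0.62 ± 0.21, adjusted p = 0.0226). Mdm2 stood at 0.61, 0.16, 0.80 and 0.69, against 1.05, 0.80, 1.13 and 0.86 (-0.39 ± 0.12, adjusted p = 0.0132). Ccng1 and Trp53inp1 overlapped with the controls and Mdm2 did not, and IODO replicate 2 was the lowest array for all 3 genes. Without IODO replicate 2, CCO4 replicate 1 or CCO4 replicate 3 none of the 3 was called, at -0.57 to -0.49 for Ccng1, -0.50 to -0.43 for Trp53inp1 and -0.36 to -0.26 for Mdm2 (adjusted p = 0.0953 to 0.327). With the arrays of its array code fitted alone the calls were lost too, at adjusted p = 0.158 for Ccng1, 0.171 for Trp53inp1 and 0.189 for Mdm2. The other probe sets of Ccng1 were at -0.85 (adjusted p = 0.0137) and -0.35 (adjusted p = 0.0674). The beta-actin 3′ minus 5′ signal averaged 0.35 in IODO and 0.69 in its controls (difference -0.34, two-sided exact permutation p = 0.0286, the smallest possible). With that signal as a covariate, Ccng1 was at -0.38 (adjusted p = 0.212), Trp53inp1 at -0.43 (adjusted p = 0.186) and Mdm2 at -0.37 (adjusted p = 0.0944).

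Phlda3, which restrains the kinase Akt by competing for membrane lipids, rose in 3 other groups. With BENZ it stood at 2.64, 2.43, 2.37 and 2.23, against 1.29, 1.73 and 2.12 as lowest, median and highest of 8 controls, a change of 0.70 ± 0.13 (1.62-fold, adjusted p = 0.0283). The groups did not overlap, and BENZ was a contrast in which only 0.0296% of all genes, 4 in number, were called up and 0% down. Leaving out any of BENZ replicates 1 to 3, the first 3 arrays of CCO2 or the last 2 arrays of CCO3 ended this call (0.62 to 0.71, adjusted p = 0.0543 to 0.509), and with the arrays of its array code fitted alone the adjusted p was 0.248. With BBMP it stood at 1.89, 2.00, 2.57 and 2.27, against 1.86, 1.60, 1.77 and 1.75 in the chow controls (0.44 ± 0.15, adjusted p = 0.0402), where 10.4% of all genes were called up and 0.399% down. The lowest BBMP array barely cleared the highest control. That call was lost without BBMP replicate 3 or 4 or FCO2 replicate 2, 3 or 4 (0.31 to 0.45, adjusted p = 0.0691 to 0.278), with the beta-actin covariate (0.38, adjusted p = 0.0989) and with 1 array code alone (adjusted p = 0.0858). After quantile normalization the value was 0.23 (adjusted p = 0.437), beside a median shift of all genes of 0.10 as deposited.

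With IODO, Phlda3 rose while the 3 genes above fell. It stood at 2.38, 3.07, 1.99 and 2.15 in IODO lungs, against 1.59, 1.97, 1.46 and 2.02 in controls (0.64 ± 0.15, adjusted p = 0.0047), and the groups overlapped. IODO replicate 2 was here the highest array, and without it the value was 0.41 (adjusted p = 0.275). The call was also lost without CCO4 replicate 1 (0.58, adjusted p = 0.0551) or 3 (0.54, adjusted p = 0.0865), with the beta-actin covariate (0.54, adjusted p = 0.0683) and with 1 array code alone (adjusted p = 0.158).

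Cdkn1a, which encodes the cell cycle inhibitor p21 and is the textbook p53 target, was called up in no group. It stood at 1.32, 1.62, 2.29 and 2.06 with MACR, against 2.02, 2.69, 2.37 and 3.37 in the water controls, and was called down (-0.79 ± 0.25, adjusted p = 0.0465) although the groups overlapped. The call was lost without MACR replicate 1, 2 or 3 or WCO1 replicate 1, 3 or 4 (-0.99 to -0.53, adjusted p = 0.0624 to 0.293). It was also lost in 5 of 8 other settings, with adjusted p of 0.0503 for the mean of probe sets, 0.0528 for each probe set on its own, 0.0611 without the filter, 0.0625 with the beta-actin covariate and 0.111 with 1 array code alone. Its differences ranged over the 34 groups between -0.99 (CMPH, adjusted p = 0.354) and 0.77 (NAPD, adjusted p = 0.307), and neither end passed the test. In TCPN lungs Cdkn1a averaged 2.75, a difference from controls of 0.05 that was not called.

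Sesn2, a sestrin that restrains the growth kinase mTORC1 and is also switched on by the stress factor ATF4, rose with VANP. It stood at 0.73, 0.76, 0.87 and 0.76 in VANP lungs, against 0.34, 0.46 and 0.67 as lowest, median and highest of 14 air controls, without overlap. The change was 0.31 ± 0.06 (1.24-fold, adjusted p = 0.0134), where 3.02% of genes were called up and 1.31% down. It was lost without VANP replicate 3 (0.28, adjusted p = 0.067) or ACO3 replicate 3 (0.29, adjusted p = 0.104). The second probe set of Sesn2 was at 0.32 and not called (adjusted p = 0.124). Of 12 genes of the ATF4 and endoplasmic reticulum stress list, 4 rose with VANP, namely Asns (0.72 ± 0.10, adjusted p = 0.000145), Psat1 (0.54 ± 0.08, adjusted p = 2.56e-05), Trib3 (0.29 ± 0.07, adjusted p = 0.0368) and Sesn2 itself. Asns and Psat1 make amino acids and Trib3 is a pseudokinase of the stress response. The list's median with VANP was 0.06, beside -0.01 for all genes, and any link of these rises to Sesn2 was not tested.

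Ei24, a membrane protein of the endoplasmic reticulum with a part in autophagy, was called in none of the 34 groups by limma, and its differences lay between -0.42 (MECL at 500 ppm) and 0.37 (BBMP, adjusted p = 0.0817). Eda2r read between -1.19 and -0.58 over the arrays, always below the median of all values of -0.386. Its differences from controls of -0.11 to 0.26 therefore carry little weight and were not tested in the main fits. Its group means were -0.97, -0.95, -0.83, -0.82 and -0.70 at the 5 rising concentrations of MECL.

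**Figure D2:**
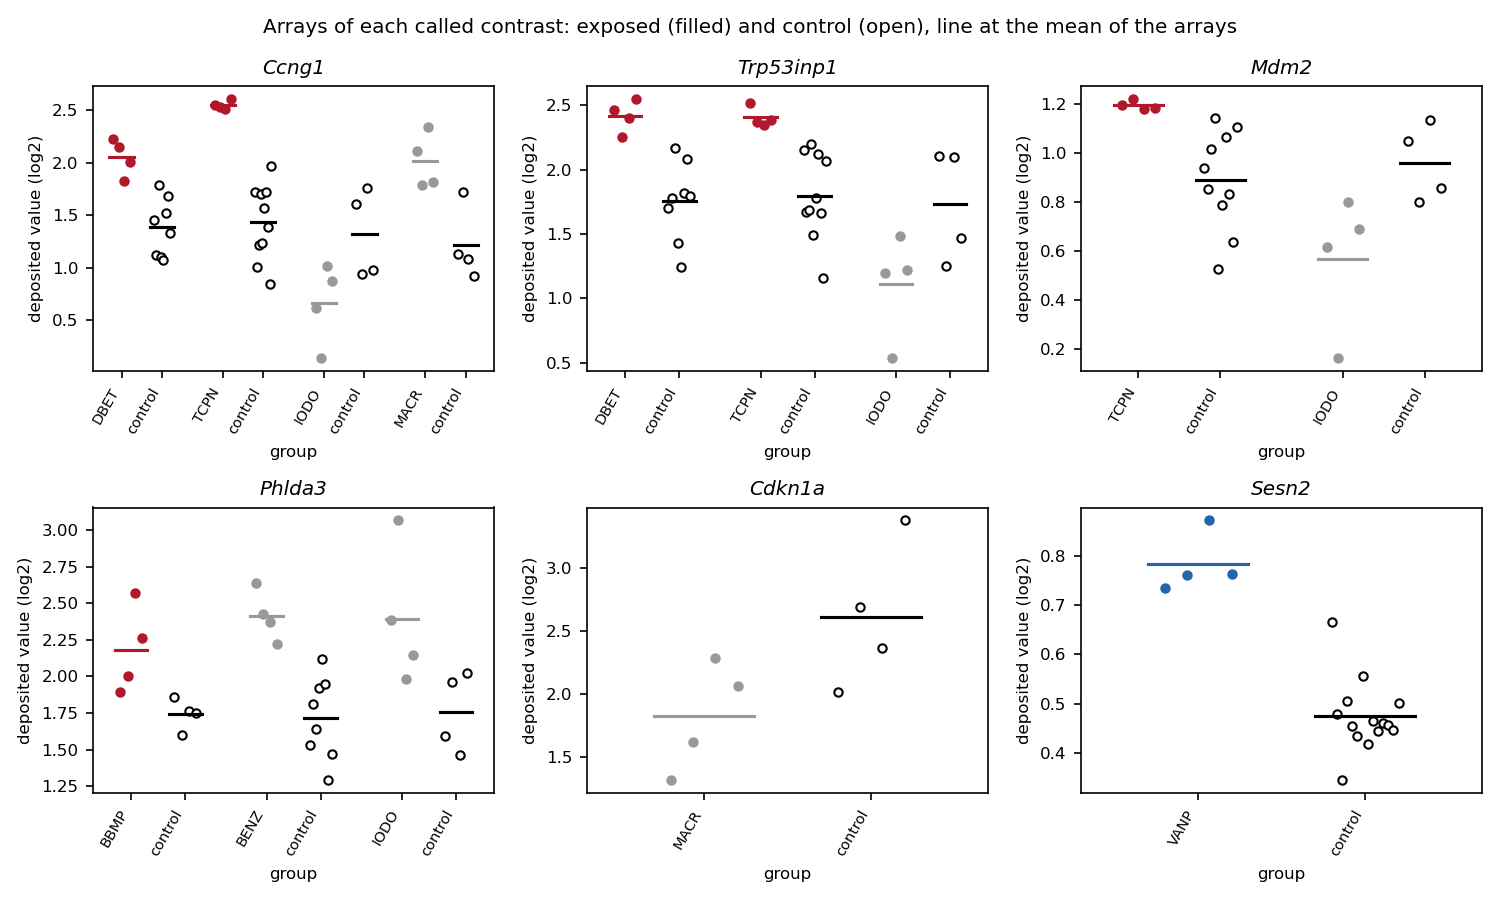
Deposited log2 value of each array in the 14 called contrasts, 1 panel per gene, with exposed arrays filled (red DNA-reactive, grey uncertain, blue other) to the left of their open control arrays and a line at the mean of the arrays. The 4 TCPN arrays of Ccng1 sit between 2.52 and 2.61, above all controls, and IODO replicate 2 lies apart at 0.13.

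Beta-actin and cell type readings moved with some of these groups. The beta-actin 3′ minus 5′ difference from controls was 0.07 for TCPN, 0.24 for DBET, 0.08 for MACR, 0.01 for BENZ and -0.04 for VANP, with two-sided exact permutation p-values of 0.0707 or more. In DBET the arrays read 1.55, 0.73, 0.71 and 0.76, against a control average of 0.70, so replicate 1 lay far above the rest. For BBMP it was -0.20, with averages of 0.32 in BBMP and 0.52 in chow controls (exact permutation p = 0.0286). Among the 58 control arrays, with set means removed, Ccng1 followed this signal with Pearson r = 0.43 and Spearman rho = 0.37 (permutation p = 0.0074 and 0.013, adjusted over 7 relations 0.052 and 0.091, r = 0.41 without the 2 most distant arrays). The 6 other members had r between -0.31 and 0.26, with adjusted permutation p of 0.086 or more. With the covariate, the Ccng1 rise was 1.06 with TCPN (adjusted p = 0.000113), 0.74 with MACR (adjusted p = 0.0435) and 0.47 with DBET (adjusted p = 0.248). Trp53inp1 was then at 0.57 with TCPN (adjusted p = 0.0467) and 0.53 with DBET (adjusted p = 0.156). Fits with the covariate were not repeated without DBET replicate 1. RNA integrity numbers, where given, were 9.4 to 9.6 in TCPN arrays and 6.7 to 8.8 in their controls, without overlap. Exposure and this measure therefore cannot be told apart with TCPN, and its part in the TCPN calls was not tested. The ranges overlapped for DBET (7.1 to 8.8, controls 7.9 to 8.8) and VANP (9.3 to 9.6, controls 6.1 to 9.5). They also overlapped for MACR and BENZ.

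Club cell markers rose in DBET lungs, 4 of 4, with a mean over the markers of 6.61 to 6.78 in DBET arrays and 5.72 to 6.55 in controls. Ciliated cell markers rose there for 2 of 4 (1.72 to 2.10 in DBET, 1.15 to 1.63 in controls). With TCPN 1 of 4 markers rose for each of club cells, ciliated cells and macrophages, and with VANP 2 of 4 macrophage markers rose (2.78 to 2.95 in VANP, 1.96 to 2.55 in controls). With IODO 2 of 4 club cell markers fell (5.86 to 6.31 in IODO, 6.13 to 6.33 in controls) and 2 of 4 markers of B and plasma cells rose. Over all genes 2.31% were called up with DBET, 7.73% with TCPN and 3.02% with VANP. With IODO 15.6% were called up and 11.9% down. The part of these markers in the results was not tested. The lung markers Scgb1a1, Sftpc and Ager stood at the 100th percentile of all genes by mean level over all arrays.

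By class, the members' calls at the highest concentration were 6 up and 0 down among 49 pairs for DNA-reactive chemicals (12.2% and 0%, with 2.96% and 0.379% of all gene pairs called up and down). They were 3 up and 4 down among 49 pairs for uncertain chemicals (6.12% and 8.16%, with 3.08% and 1.89% over all genes). For the others 1 of 84 pairs was called up and 0 down (1.19%, with 1.57% and 0.547% over all genes). A member rose with 3 of the 7 DNA-reactive chemicals, namely TCPN, DBET and BBMP, with 3 of the 7 uncertain ones and with 1 of the 12 others. No member was called with ETOX, CMPH, TDPP or MECL at 4000 ppm, groups in which limma called 0%, 0%, 0.00739% and 0.251% of all genes up and 0%, 0%, 0% and 0.251% down.

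The classes were then compared with 1 value per chemical and the array code as a covariate, 7 DNA-reactive chemicals against all 19 others. By limma no member was called, and neither was any other gene, while 810 genes (5.99%) had an unadjusted p under 0.05. Trp53inp1 averaged 0.31 over the DNA-reactive chemicals and -0.04 over the others, and was above 0 for 6 of 7 and 9 of 19 chemicals. The difference was 0.28 ± 0.11 (95% interval 0.06 to 0.50, adjusted p = 0.689). Ccng1 averaged 0.31 and -0.06, above 0 for 6 of 7 and 8 of 19 chemicals, and differed by 0.28 ± 0.15 (interval -0.03 to 0.59, adjusted p = 0.689). For Mdm2 the averages were 0.14 and 0.01 and the difference 0.11 ± 0.07 (interval -0.02 to 0.25, adjusted p = 0.689).

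The other 4 members differed by less than their error between the classes or close to it. Cdkn1a differed by -0.01 ± 0.19 (interval -0.39 to 0.38), Phlda3 by -0.01 ± 0.11 (interval -0.24 to 0.22), Sesn2 by -0.06 ± 0.05 (interval -0.17 to 0.06) and Ei24 by -0.05 ± 0.08 (interval -0.23 to 0.12), all with adjusted p of 0.803 or more. These intervals do not show that the classes act alike on those genes. Within array codes, the Ccng1 difference was 0.46 in RT_HON07, 0.18 in RSTLRI601_1 and 0.31 in RSTLRI000_2, and that of Trp53inp1 was 0.22, 0.28 and 0.30 in the same order. RT_HON07 held 1 DNA-reactive chemical and IMFGN0023_8 none. When the 26 chemicals were treated as fixed, so that arrays rather than chemicals set the error, Ccng1, Trp53inp1 and Mdm2 passed (adjusted p = 0.00835, 0.00954 and 0.0452) along with 18.3% of all genes.

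**Figure D3:**
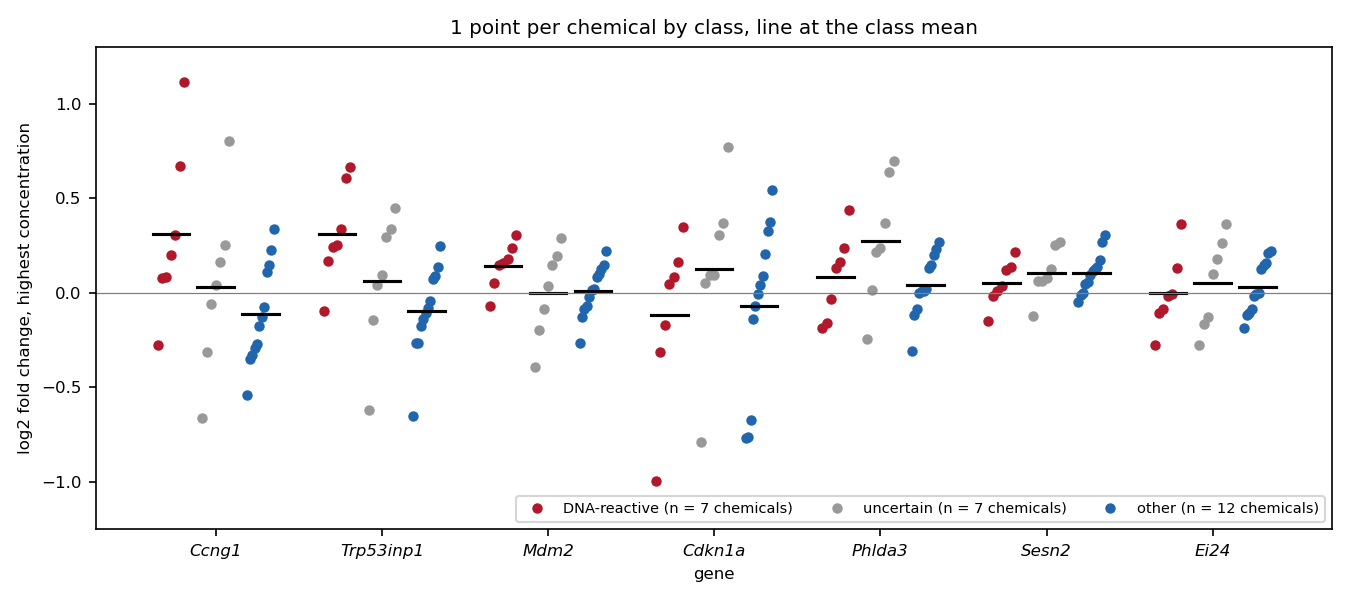
Log2 fold change at the highest concentration, 1 point per chemical, for each tested gene by class (red DNA-reactive, n = 7, grey uncertain, n = 7, blue other, n = 12), with a line at the class mean and 0 marked. The red points of Ccng1 reach 1.11 and those of Trp53inp1 0.66, and in every gene the classes overlap.

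DNA-reactive chemicals were also set directly against chemicals classed as other in the same vehicle and array code, in 10 contrasts chosen after the data had been seen. In TCPN lungs Ccng1 averaged 2.55 and in DCBZ lungs 1.59, a difference of 0.97 ± 0.20 (adjusted p = 0.0015), where 4.63% of all genes were higher. Cdkn1a averaged 2.75 with TCPN and 2.03 with DCBZ (0.72 ± 0.25, adjusted p = 0.0484), and Phlda3 1.88 and 1.44 (0.44 ± 0.15, adjusted p = 0.0406). The Ccng1 call held with each of the 8 arrays left out (0.80 to 1.14), whereas the other 2 were lost with every one of them (0.56 to 0.81 for Cdkn1a, adjusted p = 0.0578 to 0.149, and 0.35 to 0.50 for Phlda3, adjusted p = 0.0536 to 0.122). Quantile normalization ended both as well, at 0.48 for Cdkn1a (adjusted p = 0.307) and 0.24 for Phlda3 (adjusted p = 0.351). Cdkn1a was lost with the mean of its probe sets too (0.60, adjusted p = 0.0576). Against their own controls Cdkn1a was at 0.05 in TCPN lungs and -0.67 in DCBZ lungs (adjusted p = 0.133 with DCBZ). Phlda3 was at 0.13 and -0.31 in the same order, and none of these values was called.

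In DBET lungs 3 members were higher than in COUM lungs, where 24.4% of all genes were higher. Ccng1 averaged 2.05 with DBET and 1.11 with COUM (0.94 ± 0.20, adjusted p = 0.000133), Trp53inp1 2.42 and 1.49 (0.93 ± 0.21, adjusted p = 0.000189) and Mdm2 1.09 and 0.72 (0.36 ± 0.12, adjusted p = 0.0089). The first 2 calls held with each array left out, and that of Mdm2 was lost without COUM replicate 3 (0.29, adjusted p = 0.0775) and after quantile normalization (0.18, adjusted p = 0.172). Against their own controls Ccng1, Trp53inp1 and Mdm2 were at -0.27, -0.27 and -0.13 in COUM lungs, none of them called. In DBET lungs they were at 0.67, 0.66 and 0.235, the last not called. With ETOX, Sesn2 averaged 0.51, against 0.78 with VANP (-0.27 ± 0.08, adjusted p = 0.0164, 4.96% of genes lower). It was not called without ETOX replicate 1 or 4 or VANP replicate 3 (-0.25 to -0.23, adjusted p = 0.0581 to 0.0877). No member was called in the other 7 contrasts, which set BBMP against DIAZ or MALA, ETOX against NPTH at 30 ppm or PGBE, and MECL at 4000 ppm against NPTH at 30 ppm, PGBE or VANP. In those 7 contrasts 0% to 6.31% of all genes were higher and 0% to 6.39% lower.

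Inhaled methylene chloride and naphthalene were given at 5 concentrations each, and trends were fitted to the exposed arrays alone as the change between the lowest and the highest concentration. Over the 21 MECL arrays 3 members rose, where 27.2% of all genes rose and 15.1% fell. Ei24 changed by 0.36 ± 0.08 (adjusted p = 0.0013), with group means of 2.24, 2.21, 2.29, 2.43 and 2.61 at 100, 500, 2000, 3000 and 4000 ppm. Phlda3 changed by 0.41 ± 0.12 (adjusted p = 0.0076), with means of 1.51, 1.62, 1.75, 1.67 and 2.03. Sesn2 changed by 0.23 ± 0.05 (adjusted p = 0.0022), with means of 0.39, 0.41, 0.45, 0.58 and 0.61. The 4000 ppm group was the highest in all 3 genes, and each call held with each array left out.

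These rises began below the air controls. Against the air sets Ei24 was at -0.38 at 100 ppm and -0.42 at 500 ppm, neither called, and with the air controls added at 0 ppm the fitted change was 0.00 (adjusted p = 1). Phlda3 was then at 0.20 (adjusted p = 0.304). Sesn2 kept its call in that fit, where 411 of 13524 genes rose and 312 fell. Over the 6 other settings, this one included, its change was 0.16 to 0.23 (adjusted p of 0.0293 or less). Trp53inp1 was highest in the middle of the series, with means of 2.13, 2.16, 2.38, 2.35 and 2.06, and so was Ccng1, with 1.73, 1.63, 2.04, 1.83 and 1.67. Neither gene passed the test for a linear trend over the exposed arrays (adjusted p = 0.786 and 0.675). With the air controls added, Trp53inp1 passed (0.42, adjusted p = 0.0453) and Ccng1 did not (0.29, adjusted p = 0.202). Trp53inp1 did not pass against air at 2000 ppm (0.65, adjusted p = 0.133) or 3000 ppm (0.62, adjusted p = 0.0844).

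Over the 20 NPTH arrays Sesn2 rose by 0.21 ± 0.05 (adjusted p = 0.0024), with means of 0.35, 0.27, 0.37, 0.40 and 0.53 at 0.5, 3, 10, 20 and 30 ppm, where 9.08% of all genes rose and 31.7% fell. Its call held with each array left out, and was lost with air controls added at 0 ppm (0.06, adjusted p = 0.383). Ei24 fell by 0.22 on the log2 scale (SE 0.08, adjusted p = 0.0423), with means of 2.63, 2.59, 2.37, 2.33 and 2.44. That call was lost in 13 of the 20 fits that left out 1 array (NPTH replicates 1 to 4 at 0.5 ppm, 1, 2 and 4 at 3 ppm, 1 to 4 at 20 ppm and 3 and 4 at 30 ppm, with adjusted p = 0.0536 to 0.108). After quantile normalization it was at -0.08 (adjusted p = 0.206) and with the beta-actin covariate at -0.14 (adjusted p = 0.368). Quantile normalization added calls up for Ccng1 (0.22, adjusted p = 0.0177), Phlda3 (0.25, adjusted p = 0.00247) and Mdm2 (0.17, adjusted p = 0.00691).

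**Figure D4:**
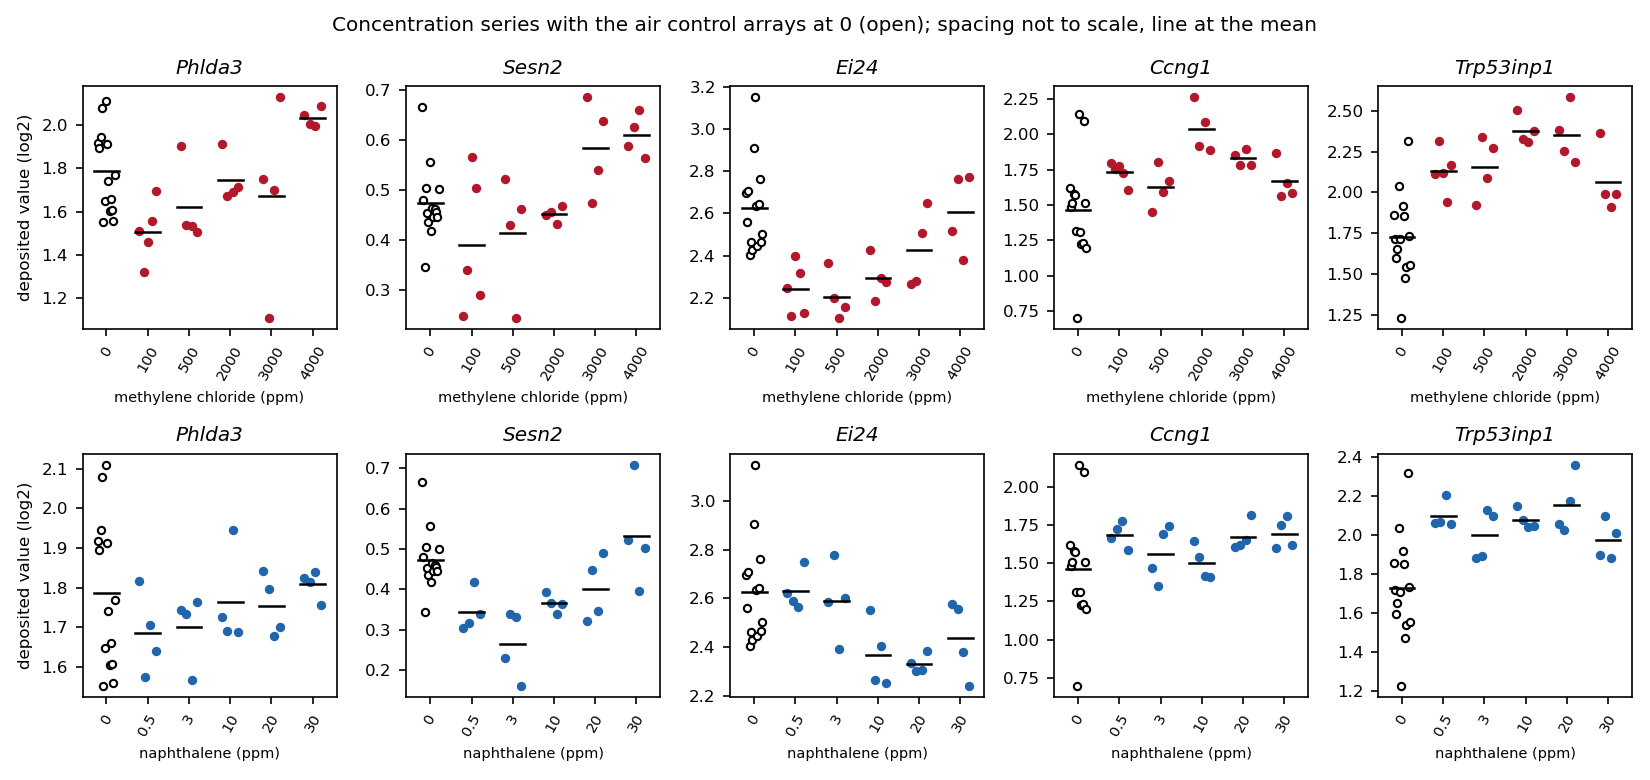
Deposited log2 values by concentration of MECL (top row, red) and NPTH (bottom row, blue) for 5 members, with the 14 air control arrays open at 0 ppm and a line at each mean. Phlda3, Sesn2 and Ei24 are highest at 4000 ppm within the MECL series, while Ei24 at 100 and 500 ppm, with means of 2.24 and 2.21, lies below most air controls.

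The members fell into a pair of sets by how their group means moved over the 48 groups, with the mean of each array code subtracted. Mdm2 and Trp53inp1 had Pearson r = 0.78, Ccng1 and Trp53inp1 0.66, and Ccng1 and Mdm2 0.51. Cdkn1a, Phlda3, Sesn2 and Ei24 had r of 0.48 to 0.62 among themselves. Between the sets r lay between -0.27 and 0.18. All points share arrays and scaling, so these values describe and test nothing. The 8 other genes most like the mean of the members were Slc19a2 (r = 0.77), Nipa2 (0.72), Marchf5 (0.71), and Mlec, Erlin1, Eif2ak3, Mark3 and Atp2a2 (0.70 each), while Cdkn1a itself had 0.72 and the other 6 members 0.44 to 0.59, below each of those 8 genes.

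**Figure D5:**
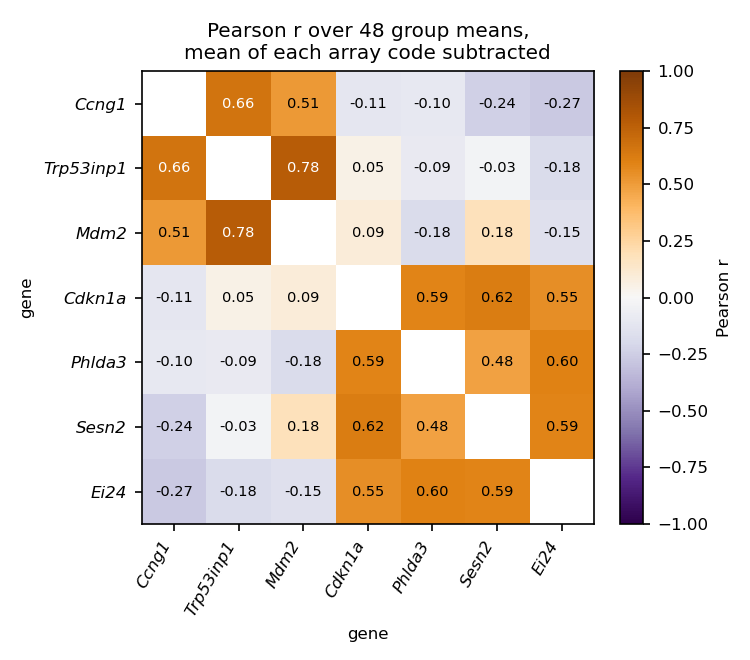
Pearson r between members over 48 group means after subtraction of the mean of each array code, orange above 0 and purple below. The block of Ccng1, Trp53inp1 and Mdm2 reads 0.51 to 0.78, that of Cdkn1a, Phlda3, Sesn2 and Ei24 0.48 to 0.62, and the values between the blocks stay between -0.27 and 0.18.

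A longer list of 35 other p53 targets, of which 32 were tested, had 27 calls up and 7 down over the 34 groups (2.48% and 0.643% of pairs, with 1.86% and 0.722% over all genes). With TCPN 5 rose, namely the ribonucleotide reductase subunit Rrm2b (0.48 ± 0.12, adjusted p = 0.0113), the epoxide hydrolase Ephx1 (0.47 ± 0.12, adjusted p = 0.0233), the lesion-bypass polymerase Polk (0.38 ± 0.10, adjusted p = 0.0166), the RNA-binding protein gene Zmat3 (0.34 ± 0.08, adjusted p = 0.0113) and Psrc1 (0.24 ± 0.05, adjusted p = 0.0102). The list's median with TCPN was 0.15, beside 0.07 for all genes, of which 7.73% were called up. With BBMP 7 rose, among them Ddit4, an inhibitor of mTORC1 (0.74 ± 0.24, adjusted p = 0.0355), the sestrin Sesn1 (0.46 ± 0.11, adjusted p = 0.0094), Ephx1 (0.44 ± 0.15), Zmat3 (0.31 ± 0.10), the nuclease Aen (0.29 ± 0.09) and Pml (0.27 ± 0.08), with a median of 0.16 beside 0.10 for all genes. With DBET 2 rose, Dcxr (0.62 ± 0.15, adjusted p = 0.0261) and Ephx1 (0.59 ± 0.13, adjusted p = 0.0191). Over all genes 10.4% were called up with BBMP and 2.31% with DBET.

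With IODO 5 of the 32 tested targets fell and 1 rose, where 11.9% of all genes were called down and 15.6% up. Calls of this list were not refitted with an array left out. The BH3 gene Pmaip1 was at -0.43 ± 0.15 (adjusted p = 0.0291), the repair nuclease Ercc5 at -0.42 ± 0.11 (adjusted p = 0.0095), Rrm2b at -0.40 ± 0.14 (adjusted p = 0.0261), the death receptor Fas at -0.37 ± 0.13 (adjusted p = 0.0277) and Ckap2 at -0.21 ± 0.08 (adjusted p = 0.0405), while Pml rose by 0.34 ± 0.08 (adjusted p = 0.006). With MACR Rrm2b rose (0.48 ± 0.14, adjusted p = 0.0338) and Plk3 fell (-0.22 ± 0.07, adjusted p = 0.0424). Ephx1 was also called up with BENZ (0.81 ± 0.13, adjusted p = 0.0109), NAPD (0.77) and BFUR (0.67). Of 9 tested genes listed for the stress factor NRF2, 5 were called up with DBET, 5 with BBMP and 3 with TCPN. In the further groups with Ephx1 called, it was 5 with BFUR, 9 with NAPD and 0 with BENZ. Any link of those calls to Ephx1 or Dcxr was not tested. TFEL gave rises of Zmat3 (0.45), the BH3 gene Bbc3 (0.33) and Pml (0.26), VANP of the autophagy gene Dram1 (0.58 ± 0.10, adjusted p = 0.0013), MALA of Psrc1 (0.42), NAPD of Psrc1 (0.32), DCBZ of Pidd1 (0.22) and ABDQ of the antiproliferative gene Btg2 (0.69), which fell at 0.5 ppm NPTH (-0.70).

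Of 11 tested p53 regulators, 7 calls were up and 3 down (1.87% and 0.802% of pairs, with 1.86% and 0.722% over all genes). The checkpoint kinase Atr was at 0.47 ± 0.14 with TCPN (adjusted p = 0.0369) and -0.53 ± 0.16 with IODO (adjusted p = 0.0159). The acetyltransferase Ep300 was at 0.43 with TCPN and -0.35 with IODO, and Mdm4, the partner of Mdm2, at 0.33 and -0.34, so all 3 were called in both groups in opposite directions. Over all genes 7.73% were called up with TCPN and 11.9% down with IODO. Calls of the regulators were not refitted with an array left out. Usp7, which removes ubiquitin from Mdm2 and p53, rose with DBET (0.37 ± 0.10, adjusted p = 0.0427), Hipk2 with TFEL (0.53) and Ppp1r13l with TFEL (0.26) and IODO (0.21). Of 18 tested DNA repair genes, 11 calls were up and 3 down (1.8% and 0.49% of pairs, no higher than the 1.86% and 0.722% over all genes). They included the mismatch repair gene Msh6 with TCPN (0.41 ± 0.09, adjusted p = 0.0082), MACR (0.34) and IODO (-0.34), and Mpg (0.30), Parp1 (0.28), Ddb2 (0.27) and Lig1 (0.23) with BBMP. IODO also gave Xrcc1 (0.30), Parp1 (0.24), Lig1 (0.17) and Nbn (-0.69), NEDD Brca2 (0.39), TCFM Mpg (0.38) and COUM Polh (-0.23). By the probe sets that stood for the genes, the members had no call with ABDQ, BFUR, COUM, DCBZ, MALA, NAPD, NEDD, TCFM, TFEL or NPTH at 0.5 ppm. Over all genes the shares called up and down were 0.643% and 0.274% with ABDQ, 1.66% and 0.2% with BFUR, 4.06% and 1.63% with COUM, and 1.05% and 0.377% with DCBZ. They were 0.991% and 0.717% with MALA, 1.04% and 0.0592% with NAPD, 0.0887% and 0% with NEDD, 0.192% and 0.296% with TCFM, 5.65% and 1.48% with TFEL, and 0.126% and 0.244% with NPTH at 0.5 ppm.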

How the data were processed

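Lung RNA, per the labels kept in RNAlater, extracted with Trizol, purified on RNeasy columns and biotin-labelled by the standard Affymetrix protocol, was read on the arrays of all 26 chemicals and 14 control sets. Values as deposited are on a log scale, read here as log2. Neither base nor normalization is given in the sources used here. Arrays were centred, with means between -0.00269 and 0.00334.

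Of 45101 probe sets, 34958 had 1 gene symbol, 932 several and 9211 none. Genes with at least 3 arrays above the median were tested. With limma 3.58.1 in R 4.3.3, all arrays entered 1 model of group means, and the printed adjusted p is the largest over the control sets. Replicates are separate animals by label and their numbers follow accession order. The code was tested on simulated data. RNA integrity numbers exist for 159 arrays, 2 of them under 7.

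Members, lists and tests were chosen with earlier results of these data known. All members are named. Of the p53 target, p53 regulator and DNA repair lists the called genes are named, at most 6 per contrast by size, and of the other lists only genes a result turns on. Direct contrasts and the beta-actin covariate were added after seeing the data. Alternatives were quantile normalization within array code, no filter, other probe set rules, arrays of 1 code alone, pooled control sets, RNA integrity, other class settings, log10 concentration, controls at 0 ppm and each array left out, with 96 refits for control and direct contrasts.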

Additional observations from a re-analysis of the deposited data

Results flagged for a closer look

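In the air control set ACO5 the highest array, replicate 5, read 0.50 for Sesn2, 0.04 above the nearest of the other 4 arrays, and was far from them relative to the spread of that set. This was 1 of 36 group tests, of which chance gives about 1 in 20.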

How the results depend on the processing

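No paired analysis was possible because replicate numbers follow accession order and pair no animals across groups. Against controls, the 10 calls up and 4 calls down became 9 and 7 after quantile normalization, 10 and 2 with the arrays of 1 code alone, 16 and 9 with control sets pooled, and 5 and 0 with the beta-actin covariate, which was chosen after seeing the data. Leaving out 1 array gave 6 to 11 up and 1 to 6 down. Ccng1 with TCPN, Ccng1 with MACR and Sesn2 with VANP were called under each of the 8 settings that kept all groups. None of the 14 called pairs changed direction against controls under these settings or with an array left out. The 0 class calls became 3 with chemicals as fixed and stayed at 0 with each chemical left out. The 3 members rising with MECL stayed 3 and the falling 0 with each array left out. With air controls added, Sesn2 and Trp53inp1 were called rising with MECL, and Ei24 and Phlda3 were not. For NPTH the 1 rising member became 4 after quantile normalization, 2 without the filter, 2 with the mean of probe sets and 0 with air controls added, or 1 to 2 with an array left out, and the 1 falling member became 0 after quantile normalization and 0 with the beta-actin covariate, or 0 to 1. The rising member added without the filter was Eda2r, and none of the 7 tested genes gained a call there. In the direct contrasts, the 6 higher and 1 lower calls became 3 and 3 after quantile normalization, 11 and 1 without the filter, 6 and 2 with the mean of probe sets, 7 and 4 with 1 code alone and 7 and 3 with the beta-actin covariate, or 4 to 7 and 0 to 2 with an array left out. The direct count without the filter also takes in Eda2r. Where no cause is given for such a change, the cause was not tested. Signals below the median of all values on every array, as for Eda2r, could not be read.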
